A study of Homo sapiens with 7 samples.

Results

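Expression of 10 genes of the epithelial-mesenchymal axis was followed in the human ovarian cancer line SKOV3 after stable knockdown of the co-repressors CtBP1 or CtBP2. They were chosen by name for their known roles, with earlier results of these data known. These are the transcription factors ZEB1, ZEB2, SNAI1, SNAI2 and TWIST1, and the epithelial surface proteins CDH1 and EPCAM. The mesenchymal markers CDH2, VIM and FN1 complete the set. All 10 of the 10 had a signal among the 17958 genes tested. The study holds 7 Affymetrix Human Gene 1.1 ST arrays, which measure a whole transcript through many probes and give 1 log2 signal per gene and array. Of these, 3 are labelled CtBP1 knockdown, 2 are CtBP2 knockdown and 2 are scramble control. Each array holds RNA of a stable SKOV3 line, called a clone in the design text and made by lentiviral infection. All of these lines, controls included, were kept under puromycin. The titles and the cell line field give SKOV3 for every array, while the number in the source names runs on past that of SKOV3. Each clone was measured on 1 array, so the p-values cover only the spread between these arrays, and differences between clones and differences between knockdowns cannot be told apart beyond that spread. RNA came from a column kit by the labels and from TRIzol by the design text, so the extraction is uncertain.

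Epithelial-mesenchymal transition is the switch by which epithelial cells loosen their junctions and take on a motile, mesenchymal state. ZEB, SNAI and TWIST factors drive it. They bind E-boxes in promoters of epithelial genes such as CDH1, and ZEB1 and ZEB2 bring CtBP proteins there as co-repressors. E-cadherin (CDH1) is commonly replaced by N-cadherin (CDH2) in the course of this switch, while the intermediate filament vimentin (VIM) and the matrix protein fibronectin (FN1) are produced. MicroRNAs of the miR-200 family repress ZEB1 and ZEB2, and the ZEB factors repress the genes of these microRNAs in turn.

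Across all genes, scramble control 1 stood apart, with correlations over genes, which are not independent replicates, of 0.926 to 0.941 with the other 6 arrays. CTBP2 gave 4.64 and 4.22 in the CtBP2 knockdown clones and 5.70 and 6.14 in scramble. CTBP1 gave 5.11, 6.13 and 6.13 in the clones labelled CtBP1 knockdown and 5.69 and 6.37 in scramble. On 2 of 3 arrays the CTBP1 transcript thus lay between the scramble clones and does not show the knockdown of that label. These 2 arrays hold the identical CTBP1 value, so they may not be 2 separate readings of it. The words "labelled CtBP1 knockdown" are therefore kept throughout. The mean signal of 9 SKOV3 and ovarian carcinoma markers was 6.27 to 6.53 in the clones labelled CtBP1 knockdown, 6.44 to 6.77 in the CtBP2 knockdown clones and 5.89 to 6.49 in the scramble clones. Of these markers WT1 had a low signal, 1.92 to 2.21, on all arrays. Single genes of the fibroblast, endothelial and leukocyte marker lists (16 genes) had signals between 1.22 and 3.32 on every array, which is the range of the off-lineage markers. Its upper end is COL1A1 on scramble control 1, while the endothelial and leukocyte lists reach only 2.33 and 2.31. The range is thus a wide yardstick set by a fibroblast collagen. COL1A1, COL1A2 and COL3A1 are also counted among the mesenchymal effectors below, and CDH5 among the other cadherins.

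The study asked which genes depend on CtBP1 and on CtBP2. Among the 10 genes, EPCAM was higher than in both scramble clones in each knockdown, by 1.75-fold in the clones labelled CtBP1 knockdown and by 2.42-fold in the CtBP2 knockdown clones. TWIST1 was lower than in both scramble clones in each knockdown, by 1.43-fold in the clones labelled CtBP1 knockdown and by 1.48-fold in the CtBP2 knockdown clones. VIM, a mesenchymal marker, was 2.23-fold higher in the CtBP2 knockdown clones. CDH1 differed by 0.03 ± 0.24 on the log2 scale in the clones labelled CtBP1 knockdown (SE, 3 arrays against 2) and by 0.47 ± 0.27 in the CtBP2 knockdown clones (SE, 2 against 2). CDH2 differed by 0.35 ± 0.61 in the clones labelled CtBP1 knockdown and by 0.03 ± 0.66 in the CtBP2 knockdown clones.

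Each array holds bulk RNA, so fewer cells with a transcript and less transcript per cell cannot be told apart. None of these differences passed the test. In the limma fit across all genes, 0 of the 10 had a Benjamini-Hochberg adjusted p under 0.05 in the comparison labelled CtBP1 knockdown against scramble, where 0% of all genes did. The same count was 0 of 10 for CtBP2 knockdown against scramble, where 0.00557% of all genes (1 gene, the small nuclear RNA gene RNU4-1, named after its value was seen) passed. It was 0 of 10 between the knockdowns, where 0% of all genes passed. At an unadjusted p under 0.05, 2 of the 10 differed in the clones labelled CtBP1 knockdown, against 4.79% of all genes: EPCAM was higher, as were 2.87% of genes, and TWIST1 lower, as were 1.92%. For CtBP2 knockdown 3 of the 10 did, against 10.2% of all genes: EPCAM and VIM were higher, as were 7.19% of genes, and TWIST1 lower, as were 2.98%. For the knockdowns against each other 0 of 10 did, against 7.77%. In a fit on only those 5 arrays 4 of the 10 did (SNAI2 and ZEB1 higher, EPCAM and VIM lower in the clones labelled CtBP1 knockdown), against 14.2% of all genes. The same 4 did with array weights, against 17.5%, and SNAI2 and ZEB1 did after renewed quantile normalization, against 8.35%. Both comparisons with scramble use the same 2 control arrays.

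**Figure D1:**
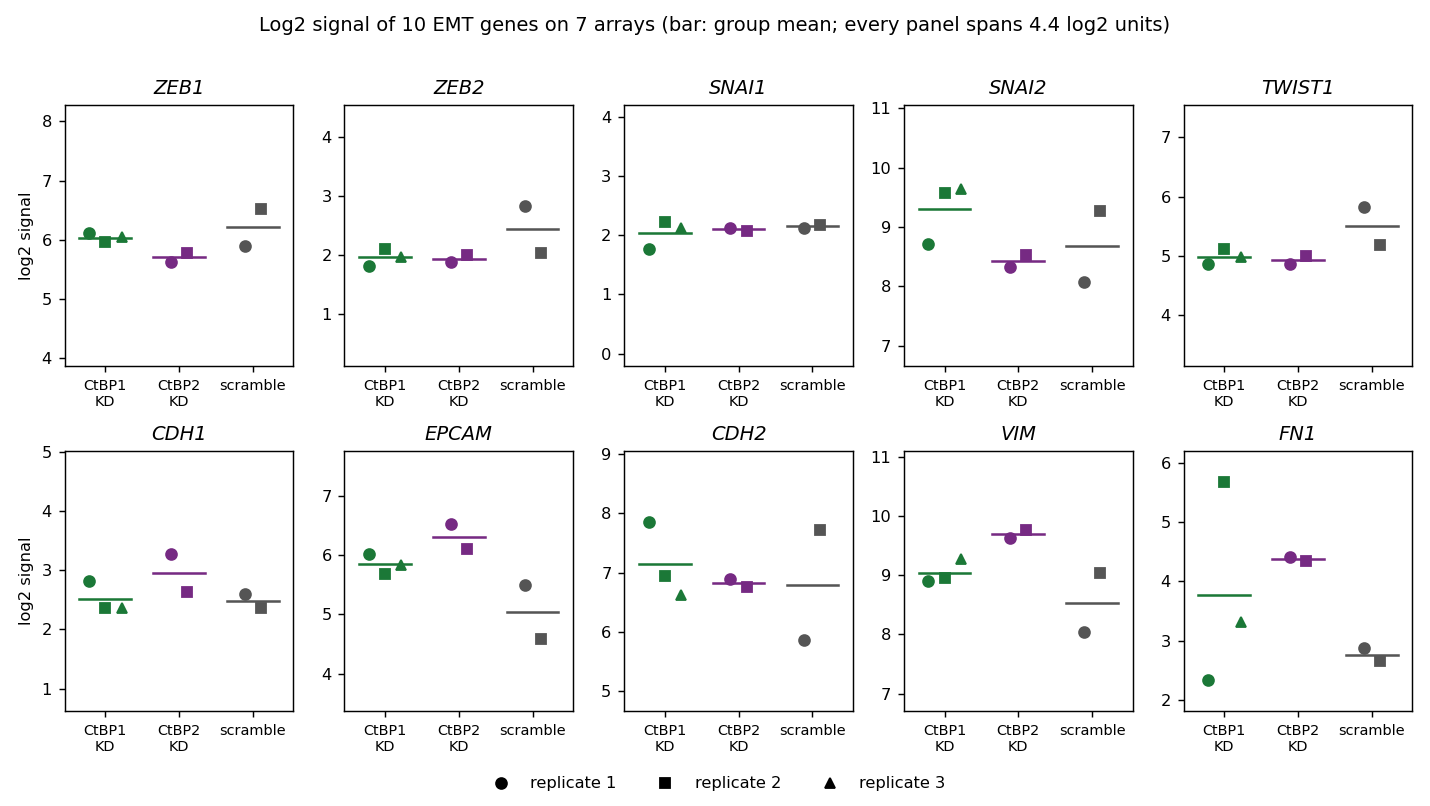
Log2 signal (y axis) of each of the 10 genes on each of the 7 arrays, with 1 point per array, the symbol showing the replicate number and the bar the group mean. Every panel spans the same number of log2 units. EPCAM lies above both scramble clones in each knockdown and TWIST1 below both, while CDH2 in the 2 scramble clones brackets 4 of the 5 knockdown clones.

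ZEB1, on chromosome 10 (31318417 to 31529804, GRCh38.p14), encodes a zinc finger repressor through which CtBP is recruited to epithelial promoters. Its log2 signals were 6.11, 5.97 and 6.04 in the clones labelled CtBP1 knockdown, 5.62 and 5.78 in the CtBP2 knockdown clones, and 5.90 and 6.52 in the scramble clones. The CtBP2 knockdown clones were the lowest of the 7, with no overlap with either other group. The clones labelled CtBP1 knockdown all lay between the scramble clones. The log2 difference was -0.51 ± 0.22 for CtBP2 knockdown (SE, adjusted p = 0.501, limma) and -0.17 ± 0.20 for the clones labelled CtBP1 knockdown (adjusted p = 0.798). Without scramble control 1 the CtBP2 difference was -0.82, and without scramble control 2 it was -0.20. For the clones labelled CtBP1 knockdown the difference was -0.48 with scramble control 2 alone and 0.14 with scramble control 1 alone.

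RefSeq's promoter windows for GRCh38.p14 (300 bases, 250 before a start site to 50 after it) were searched for CAGGTG and CACCTG, the core that ZEB and SNAI factors bind. These words are each other's reverse complement, so both strands are covered. Windows were present for 5 of the 10 genes (ZEB1, ZEB2, VIM, FN1 and CDH2), 12 windows in all, and 2 of them held the motif, both of them among the 7 windows of ZEB1. One of these held 3 copies, at 242 and 85 bases before the start site and 34 bases after it. Of all 35116 windows, 20.6% held at least 1 copy and 0.635% held 3 or more. The window with 3 copies is shown because it holds the most copies among the windows of these genes, with the motifs in capitals, at chr10:31318966-31319265 on the plus strand. No binding was measured here, and a match is only a match of letters.
ZEB1 promoter: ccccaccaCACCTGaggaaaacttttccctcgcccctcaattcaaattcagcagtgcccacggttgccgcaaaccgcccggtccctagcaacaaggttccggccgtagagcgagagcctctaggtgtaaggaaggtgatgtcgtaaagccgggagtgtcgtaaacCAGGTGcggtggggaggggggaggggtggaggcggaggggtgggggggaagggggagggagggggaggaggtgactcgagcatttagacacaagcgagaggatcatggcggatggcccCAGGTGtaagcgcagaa

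ZEB2, the related zinc finger repressor on chromosome 2, had log2 signals of 1.82, 2.09 and 1.97 in the clones labelled CtBP1 knockdown, 1.88 and 2.00 in the CtBP2 knockdown clones, and 2.84 and 2.04 in the scramble clones. Scramble control 1 was high, and scramble control 2 lay within the range of the clones labelled CtBP1 knockdown. The difference was -0.48 ± 0.24 for the clones labelled CtBP1 knockdown (SE, adjusted p = 0.734, limma) and -0.50 ± 0.27 for CtBP2 knockdown (adjusted p = 0.534). Without scramble control 1 these were -0.08 and -0.10. Without scramble control 2, which leaves the array that stands apart as a lone control assumed to vary like the other groups, they were -0.87 and -0.90 with adjusted p-values of 0.0247 and 0.0219. A dimmer ZEB2 transcript cluster differed by -0.30 in the clones labelled CtBP1 knockdown and by -0.32 in the CtBP2 knockdown clones.

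The miR-200 family is shown because it sits in a double-negative loop with the ZEB genes and its mature sequences fall into a pair of seed groups. The seed (bases 2 to 8 of the mature RNA) is in capitals, and the sequences are from RefSeq with GRCh38.p14. The first 3 share the seed AAUACUG, and the last 2 share AACACUG, 1 base apart.
hsa-miR-200b-3p: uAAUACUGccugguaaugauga
hsa-miR-200c-3p: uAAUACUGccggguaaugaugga
hsa-miR-429: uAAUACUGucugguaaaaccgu
hsa-miR-200a-3p: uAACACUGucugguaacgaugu
hsa-miR-141-3p: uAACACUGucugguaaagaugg
MIR200B, MIR200A and MIR429 lie together on chromosome 1, and MIR200C and MIR141 lie together on chromosome 12. The arrays report host transcript clusters of these genes, not mature microRNA. MIR200A had signals of 1.63, 2.09 and 1.63 in the clones labelled CtBP1 knockdown, 1.39 and 1.41 in the CtBP2 knockdown clones, and 1.61 and 1.63 in the scramble clones. MIR200A was thus lowest in the CtBP2 knockdown clones, with a difference of -0.22, and MIR429 differed by -0.14 there (0.030 after renewed quantile normalization), both without overlap of the groups. The 2 of 5 genes lower without overlap compare with 21.7% of all genes. After renewed quantile normalization 1 of the 5 was lower, against 17.7% of all genes, and after median centring 1 of 5, against 12%. Among the alternatives tried the MIR200A difference was as small as -0.07. On all arrays the signals of these 5 genes lie in the range of the off-lineage markers. The arrays therefore do not show whether they were expressed. Of the 5 genes, 0 had an unadjusted p under 0.05 in either comparison with scramble, against 4.79% and 10.2% of all genes. The differences ran from -0.20 to 0.16 in the clones labelled CtBP1 knockdown and from -0.22 to 0.03 in the CtBP2 knockdown clones.

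SNAI1 encodes Snail, a zinc finger repressor of CDH1. SNAI1 had log2 signals of 1.77, 2.22 and 2.13 in the clones labelled CtBP1 knockdown, 2.12 and 2.07 in the CtBP2 knockdown clones, and 2.12 and 2.18 in the scramble clones. The 7 arrays spanned 0.45 log2 units, the narrowest range of the 10 genes. The difference was -0.11 ± 0.16 for the clones labelled CtBP1 knockdown (SE, 95% interval -0.50 to 0.28) and -0.05 ± 0.17 for CtBP2 knockdown (95% interval -0.48 to 0.37). These were -0.14 and -0.08 without scramble control 1, and -0.08 and -0.02 without scramble control 2. The files carry no detection calls, and the signals of SNAI1, ZEB2 and CDH1 on all arrays, and those of FN1 in scramble, fall in the range of the fibroblast, endothelial and leukocyte markers. Probes differ in brightness, so the arrays do not show whether these genes were expressed there, a difference from such a signal is not a measured fold, and signals of different genes are not amounts of transcript that can be compared.

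SNAI2 encodes Slug, the relative of Snail, on chromosome 8. The log2 signals of SNAI2 were 8.71, 9.58 and 9.63 in the clones labelled CtBP1 knockdown, 8.33 and 8.53 in the CtBP2 knockdown clones, and 8.08 and 9.27 in the scramble clones. Replicates 2 and 3 labelled CtBP1 knockdown were the highest, scramble control 1 was the lowest, and both CtBP2 knockdown clones lay between the scramble clones. The difference was 0.64 ± 0.43 for the clones labelled CtBP1 knockdown (SE, adjusted p = 0.734, limma) and -0.24 ± 0.47 for CtBP2 knockdown (adjusted p = 0.829). With scramble control 1 left out, these were 0.04 and -0.84, and without scramble control 2 they were 1.23 and 0.35, so the direction for CtBP2 knockdown turns with the control used.

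TWIST1 encodes a basic helix-loop-helix factor on chromosome 7. TWIST1 signals were 4.86, 5.11 and 4.99 in the clones labelled CtBP1 knockdown, 4.87 and 5.001 in the CtBP2 knockdown clones, and 5.82 and 5.19 in the scramble clones. All 5 knockdown clones lay below both scramble clones. The gap to scramble control 2 was narrow, at 0.07 log2 units from the nearest knockdown clone. The difference was -0.52 ± 0.21 for the clones labelled CtBP1 knockdown (SE, unadjusted p = 0.0465, adjusted p = 0.734, limma) and -0.57 ± 0.23 for CtBP2 knockdown (unadjusted p = 0.0461, adjusted p = 0.487). Without scramble control 1 these were -0.20 and -0.25. Without scramble control 2, which leaves the array that stands apart as a lone control, they were -0.84 and -0.89.

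**Figure D2:**
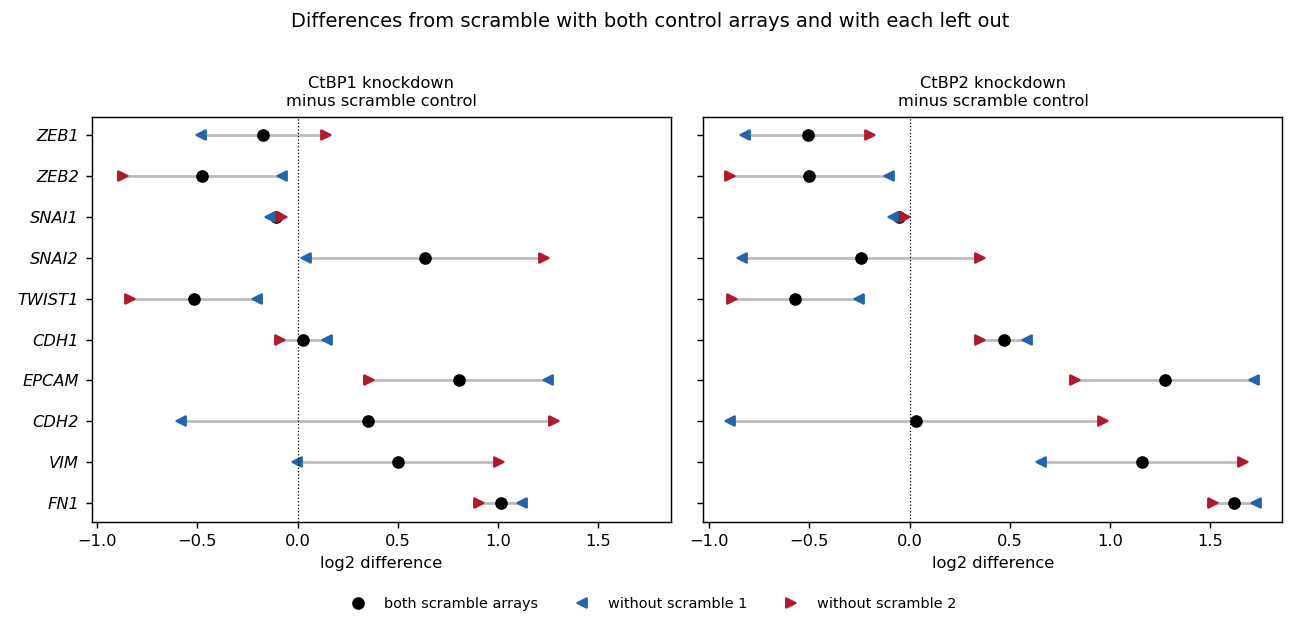
Log2 difference from scramble (x axis) of each of the 10 genes, on the left for the clones labelled CtBP1 knockdown and on the right for CtBP2 knockdown, with both scramble clones (circle) and with scramble control 1 or 2 left out (triangles). EPCAM, FN1, TWIST1, ZEB2 and SNAI1 keep 1 direction in both panels, while CDH2 crosses 0 in both.

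CDH1 encodes E-cadherin, the adherens junction cadherin of epithelia, on chromosome 16. CDH1 had log2 signals of 2.81, 2.36 and 2.37 in the clones labelled CtBP1 knockdown, 3.27 and 2.63 in the CtBP2 knockdown clones, and 2.60 and 2.37 in the scramble clones. CtBP2 knockdown clone 1 was the highest of the 7. CtBP2 knockdown clone 2 exceeded scramble control 1 by 0.03 log2 units, a gap far below the spread within the groups. The difference for CtBP2 knockdown was 0.47 ± 0.27 (SE, adjusted p = 0.536, limma), with a 95% interval of -0.19 to 1.13. For the clones labelled CtBP1 knockdown it was 0.03 ± 0.24 (adjusted p = 0.978), with a 95% interval of -0.57 to 0.63. The CtBP2 difference was 0.59 without scramble control 1 and 0.35 without scramble control 2. Leaving out CtBP2 knockdown clone 1 gave 0.15, and leaving out clone 2 gave 0.79. The difference of the clones labelled CtBP1 knockdown was 0.14 without scramble control 1 and -0.09 without scramble control 2.

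EPCAM encodes an epithelial cell adhesion molecule and is on chromosome 2 (47369311 to 47387020). The log2 signals of EPCAM were 6.01, 5.68 and 5.84 in the clones labelled CtBP1 knockdown, 6.53 and 6.10 in the CtBP2 knockdown clones, and 5.49 and 4.59 in the scramble clones. The 3 groups did not overlap, with CtBP2 knockdown highest and scramble lowest. The difference was 1.27 ± 0.32 for CtBP2 knockdown (SE, unadjusted p = 0.00733, adjusted p = 0.355, limma) and 0.80 ± 0.29 for the clones labelled CtBP1 knockdown (unadjusted p = 0.0335, adjusted p = 0.734). With scramble control 1 left out, these were 1.72 and 1.25, and without scramble control 2 they were 0.82 and 0.36. After renewed quantile normalization EPCAM overlapped with scramble in the clones labelled CtBP1 knockdown, where 0 of the 10 genes then lay above both scramble clones without overlap, against 10.2% of all genes.

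A separate EPCAM transcript cluster had signals of 5.91, 6.07 and 4.88 in the clones labelled CtBP1 knockdown, 6.59 and 6.27 in the CtBP2 knockdown clones, and 5.94 and 4.23 in the scramble clones. On it the CtBP2 knockdown clones again exceeded both scramble clones, by a mean of 1.35, while the clones labelled CtBP1 knockdown overlapped with scramble at a mean difference of 0.54. The mean of both clusters gave 1.31 for CtBP2 knockdown (adjusted p = 0.434, limma) and 0.67 for the clones labelled CtBP1 knockdown (adjusted p = 0.733).

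Among 16984 genes searched, the one whose pattern over the 7 arrays was most like that of EPCAM was SPINT1, a membrane serine protease inhibitor of epithelia, at a root mean square distance of 0.09 log2 units between mean-centred profiles. SPINT1 had signals of 4.29, 3.95 and 4.01 in the clones labelled CtBP1 knockdown, 4.77 and 4.15 in the CtBP2 knockdown clones, and 3.51 and 2.78 in the scramble clones. Its differences were 0.94 ± 0.29 for the clones labelled CtBP1 knockdown and 1.32 ± 0.31 for CtBP2 knockdown (SE, adjusted p = 0.334 for the second, limma), or 0.57 and 0.95 without scramble control 2. EEF1A2, a translation elongation factor, followed at a distance of 0.14. A SPINT1 promoter window (chr15:40844227-40844526, plus strand, RefSeq, GRCh38.p14) is shown beside that of ZEB1, chosen by its number of copies of the same motif. It holds 1 copy, 26 bases before the start site, in capitals. Of all windows 20.6% held at least 1 copy, so a copy alone does not set SPINT1 apart, and no binding was measured.
SPINT1 promoter: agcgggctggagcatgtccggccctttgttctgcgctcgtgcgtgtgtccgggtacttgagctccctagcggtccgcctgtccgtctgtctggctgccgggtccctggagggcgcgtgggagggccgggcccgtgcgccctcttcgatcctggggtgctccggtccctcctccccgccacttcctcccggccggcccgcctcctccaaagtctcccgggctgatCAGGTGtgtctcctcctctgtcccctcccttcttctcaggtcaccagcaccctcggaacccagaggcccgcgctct

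CDH2 encodes N-cadherin, the cadherin of mesenchymal and neural cells. CDH2 had log2 signals of 7.86, 6.94 and 6.62 in the clones labelled CtBP1 knockdown, 6.88 and 6.76 in the CtBP2 knockdown clones, and 5.86 and 7.72 in the scramble clones. The scramble clones differed from each other by 1.86 log2 units, and 4 of the 5 knockdown clones lay between them. The difference was 0.35 ± 0.61 for the clones labelled CtBP1 knockdown (SE, 95% interval -1.13 to 1.83) and 0.03 ± 0.66 for CtBP2 knockdown (95% interval -1.59 to 1.66). These were -0.58 and -0.90 without scramble control 1, and 1.28 and 0.97 without scramble control 2. The 95% intervals allow a difference of over 1 log2 unit either way, so a difference of that size in CDH2 was not detectable with these controls. The patterns most like that of CDH2 were those of BDNF, a neurotrophin, at a distance of 0.15, and of ADI1, an enzyme of methionine salvage, at 0.15.

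VIM encodes vimentin and is on chromosome 10. Its log2 signals were 8.90, 8.95 and 9.27 in the clones labelled CtBP1 knockdown, 9.62 and 9.77 in the CtBP2 knockdown clones, and 8.03 and 9.04 in the scramble clones. Both CtBP2 knockdown clones exceeded all other arrays. Of the clones labelled CtBP1 knockdown, 2 lay between the scramble clones. The difference was 1.16 ± 0.33 for CtBP2 knockdown (SE, unadjusted p = 0.0132, adjusted p = 0.392, limma) and 0.50 ± 0.30 for the clones labelled CtBP1 knockdown (adjusted p = 0.734). With scramble control 1 left out, the CtBP2 difference was 0.65, and without scramble control 2 it was 1.66. The second of these fits leaves the array that stands apart as a lone control. For the clones labelled CtBP1 knockdown the difference was -0.0017 without scramble control 1, and 1.01 without scramble control 2.

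FN1 encodes fibronectin, the extracellular matrix glycoprotein, on chromosome 2. FN1 had log2 signals of 2.33, 5.68 and 3.32 in the clones labelled CtBP1 knockdown, 4.42 and 4.35 in the CtBP2 knockdown clones, and 2.87 and 2.65 in the scramble clones. Array 2 labelled CtBP1 knockdown was the highest and array 1 the lowest of all 7, so that group spans the whole range of 3.35 log2 units, a range wider than in 99.4% of genes. The CtBP2 knockdown clones were close together and above both scramble clones, whose signals lie in the range of the off-lineage markers, so the size of the difference may be a lower bound. The difference was 1.62 ± 1.00 for CtBP2 knockdown (SE, adjusted p = 0.546, limma) and 1.01 ± 0.91 for the clones labelled CtBP1 knockdown (adjusted p = 0.753).

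The FN1 value for the clones labelled CtBP1 knockdown rests on array 2, and was 0.06 without it and 1.74 without array 1. Leaving out scramble control 1 or 2 gave 1.12 or 0.90 for these clones and 1.73 or 1.51 for CtBP2 knockdown. Because the fit pools the spread over groups, the spread of these 3 arrays also widens the error of the CtBP2 comparison. A dim FN1 transcript cluster differed by 0.12 in the clones labelled CtBP1 knockdown and by -0.02 in the CtBP2 knockdown clones, so the higher FN1 signal is seen on 1 of its 2 clusters.

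**Figure D3:**
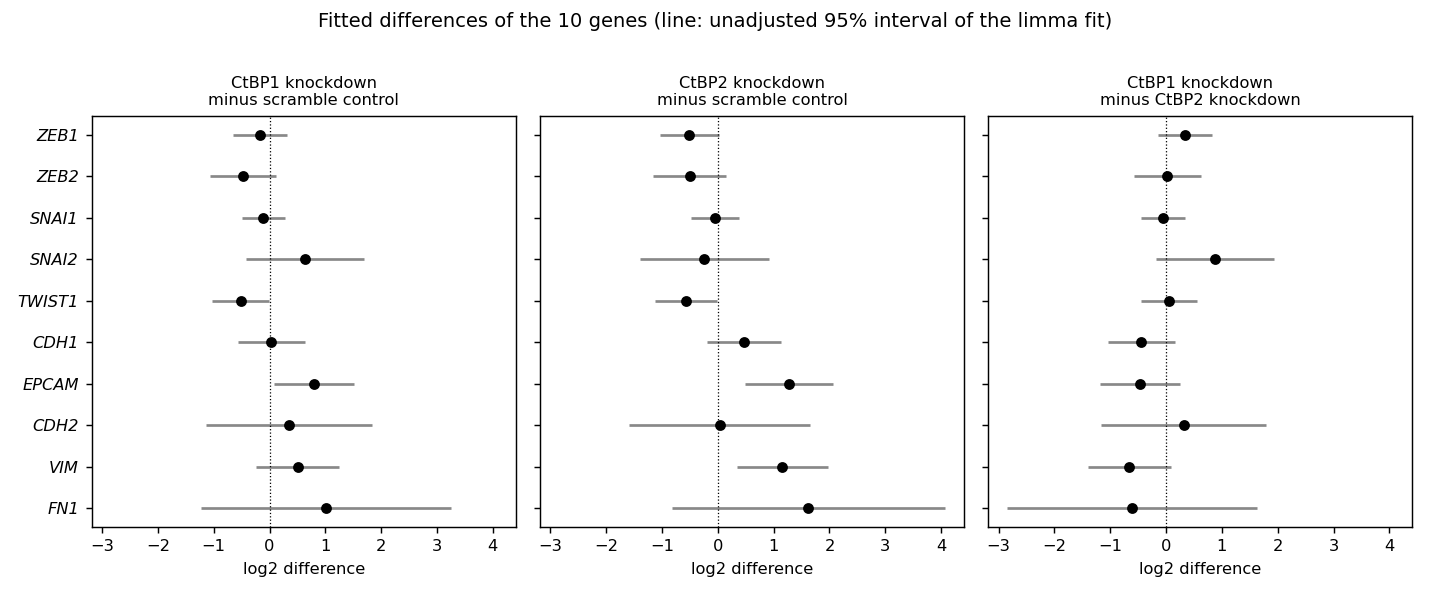
Fitted log2 difference (x axis) of each of the 10 genes in the 3 comparisons, with the unadjusted 95% interval of the limma fit as a line. The intervals of TWIST1 and EPCAM lie off 0 in both comparisons with scramble and that of VIM in the CtBP2 comparison, FN1 and CDH2 have the widest intervals, and in the direct comparison all 10 cross 0 in this fit.

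In the CtBP2 knockdown clones 7 of the 10 genes did not overlap with scramble, against 41% of all genes. CDH1, EPCAM, VIM and FN1 were higher, as were 19.3% of genes, and ZEB1, ZEB2 and TWIST1 were lower, as were 21.7%. The 4 higher genes thus hold 2 epithelial and 2 mesenchymal markers. In the clones labelled CtBP1 knockdown 2 of the 10 did not overlap, against 14.4% of all genes: EPCAM was higher, as were 6.76%, and TWIST1 lower, as were 7.59%. The median log2 difference over the 10 genes was 0.19 in the clones labelled CtBP1 knockdown and -0.01 in the CtBP2 knockdown clones, against -0.0047 and -0.02 over all genes tested.

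The 10 genes also differed between the controls. Scramble controls 1 and 2 were a median of 0.71 log2 units apart for the 10 genes and 0.38 apart for all genes, while the CtBP2 knockdown clones were 0.14 apart for the 10 genes and 0.12 for all genes. Scramble control 1 held the lowest signal of SNAI2, CDH2 and VIM and the highest of ZEB2 and TWIST1, that is the lowest of 3 and the highest of 2 genes. Over all genes it was the lowest array for 32.4% and the highest for 31.5%.

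Set against each other, the knockdowns differed by up to 0.88 log2 units in these genes, and 0 of the 10 differences passed the test. SNAI2 was higher in the clones labelled CtBP1 knockdown than in the CtBP2 knockdown clones by 0.88 ± 0.43 (SE, 3 arrays against 2, adjusted p = 0.757, limma). ZEB1 was higher there by 0.34 ± 0.20 (adjusted p = 0.83). VIM differed by -0.66 ± 0.30 (adjusted p = 0.719) and EPCAM by -0.47 ± 0.29 (adjusted p = 0.839). In these 4 genes the groups did not overlap, against 32% of all genes, of which 16.2% were higher and 15.8% lower in the clones labelled CtBP1 knockdown.

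For the other 6 genes the groups overlapped. CDH1 differed by -0.44 with a 95% interval of -1.04 to 0.16, and FN1 by -0.61 with an interval of -2.84 to 1.62. ZEB2 differed by 0.02 (-0.57 to 0.62), SNAI1 by -0.06 (-0.45 to 0.33), TWIST1 by 0.05 (-0.46 to 0.56) and CDH2 by 0.31 (-1.17 to 1.79). The intervals for TWIST1, SNAI1 and ZEB2 lie within 1 log2 unit of 0, and those of CDH2 and FN1 do not. This comparison does not use the scramble values, which enter only through the shared spread.

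Patterns most like those of the remaining genes with a range over 1 log2 unit were found in the same way, as a description over 7 arrays. ZEB2 was closest to CRISP1, a secreted protein of the epididymis, at a distance of 0.05, and then to TWIST1, also at 0.05, each of them highest on scramble control 1. SNAI2 was closest to ANXA6, a calcium-dependent membrane-binding protein, at 0.18, and then to ZBTB1, a zinc finger factor, at 0.21. VIM was closest to HSBP1, a small protein that binds heat shock factor, at 0.09, and then to PSMD3, a proteasome subunit, at 0.10. FN1 had no close match: its nearest genes were SRGN, a proteoglycan core protein, at 0.55 and H4C4, a histone gene, at 0.56.

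Genes around these members were described from 8 further lists with 115 measured genes, and 0 of them had an adjusted p under 0.05 in either comparison with scramble. Of 12 other transcription factors of the transition, 0 had an unadjusted p under 0.05 in either comparison, against 4.79% and 10.2% of all genes. TCF4, an E-protein, differed by 0.38 ± 0.23 and KLF8, a Krüppel-like factor, by 0.39 ± 0.29 in the clones labelled CtBP1 knockdown, and TBXT, the Brachyury factor, by -0.15 in the CtBP2 knockdown clones. Without array 1 labelled CtBP1 knockdown KLF8 differed by 0.09, without array 2 TCF4 differed by 0.22, and without scramble control 1 TBXT differed by -0.07. All KLF8 and TBXT signals lie in the range of the off-lineage markers. Of 18 other cadherins, 9 were lower than scramble without overlap in the CtBP2 knockdown clones and 0 were higher, against 21.7% of all genes lower and 19.3% higher, with a median difference of -0.23. Signals of these 9 ran from 1.37 to 2.90 in the CtBP2 knockdown and scramble clones, all in the range of the off-lineage markers, and scramble control 1 had the highest median over all transcript clusters, 2.93 against 2.62 to 2.71 on the other arrays. After renewed quantile normalization 4 of the 18 (22.2%) were lower and 2 higher, against 17.7% of all genes lower and 23.6% higher, with a median of -0.07. After median centring 7 were lower and 1 higher, against 12% lower and 25.6% higher, with a median of -0.09. Their leading members CDH7 (-0.31), CDH20 (-0.52) and CDH26 (-0.27) had unadjusted p-values above 0.05. In the clones labelled CtBP1 knockdown, CDH16, the kidney-type cadherin, was higher by 1.34 ± 0.59, CDH20 differed by -0.53 ± 0.22 and CDH26 by -0.22 ± 0.14, which without scramble control 1 became 0.46, -0.19 and -0.08. Leaving it out took CDH7, CDH20 and CDH26 in the CtBP2 knockdown clones to -0.19, -0.17 and -0.13.

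Epithelial genes known as targets of ZEB or SNAI factors (27 measured) were set beside CDH1 and EPCAM. In the clones labelled CtBP1 knockdown 6 of the 27 had an unadjusted p under 0.05, all higher, against 2.87% of all genes higher, with a median difference of 0.17. In the CtBP2 knockdown clones 3 of the 27 did, all higher, against 7.19% of all genes higher, with a median of 0.16, and 10 were higher and 4 lower without overlap, against 19.3% and 21.7% of all genes. In the clones labelled CtBP1 knockdown 6 were higher and 2 lower without overlap, against 6.76% and 7.59% of all genes. After renewed quantile normalization the median in these clones was 0.07. Then 4 genes were higher and 4 lower without overlap, against 10.2% and 10.7% of all genes. CLDN1, a tight junction claudin, was higher by 1.26 ± 0.36 in the clones labelled CtBP1 knockdown, and by 0.69 without scramble control 1. SPINT2, the relative of SPINT1, was higher by 0.64 ± 0.19 there and by 0.83 in the CtBP2 knockdown clones. LSR, a tricellular junction protein, was higher by 0.71 ± 0.21 in the clones labelled CtBP1 knockdown and by 0.58 in the CtBP2 knockdown clones, or by 0.41 and 0.29 without scramble control 2.

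Among 12 junction proteins that link cadherins and nectins to the cytoskeleton, JUP, or plakoglobin, had signals of 6.56, 6.44 and 6.76 in the clones labelled CtBP1 knockdown, 6.10 and 5.73 in the CtBP2 knockdown clones, and 5.40 and 5.73 in the scramble clones. It was 1.02 ± 0.18 higher in the clones labelled CtBP1 knockdown (SE, unadjusted p = 0.0014, adjusted p = 0.734, limma). VCL, or vinculin, was higher by 1.18 ± 0.48 there and by 0.89 in the CtBP2 knockdown clones, where CTNNA2, a neural alpha-catenin, differed by -0.29 and AFDN, or afadin, by 0.15. Without scramble control 1 VCL was higher by 0.33 in the clones labelled CtBP1 knockdown and by 0.045 in the CtBP2 knockdown clones, and CTNNA2 differed by -0.07. All CTNNA2 signals lie in the range of the off-lineage markers. AFDN differed by 0.05 without CtBP2 knockdown clone 2. In this list 2 of 12 genes had an unadjusted p under 0.05 in the clones labelled CtBP1 knockdown, against 4.79% of all genes, and 0 of 12 in the CtBP2 knockdown clones, against 10.2%.

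Of 12 regulators of the epithelial state, ESRP1, an epithelial splicing factor, had signals of 1.96, 1.81 and 1.90 in the clones labelled CtBP1 knockdown, 2.81 and 2.83 in the CtBP2 knockdown clones, and 2.00 and 1.58 in the scramble clones. It was higher by 1.03 ± 0.17 in the CtBP2 knockdown clones (SE, unadjusted p = 8.66e-04, adjusted p = 0.222, limma), the 1 gene of this list with an unadjusted p under 0.05, against 10.2% of all genes. All 7 ESRP1 signals lie in the range of the off-lineage markers, so the size of its difference is not a measured fold. GRHL2, a grainyhead factor that maintains epithelia, differed by -0.36 there and ELF5, an ETS factor, by -0.62, or by -0.19 and -0.16 without scramble control 1. All GRHL2 and ELF5 signals lie in the same range. In the CtBP2 knockdown clones 5 of the 12 genes were lower and 2 higher without overlap, against 21.7% and 19.3% of all genes. EHF, also an ETS factor, was higher by 1.73 ± 0.84 in the clones labelled CtBP1 knockdown, and by 1.07 without array 1 of these, and 0 of the 12 had an unadjusted p under 0.05 there, against 4.79% of all genes.

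Of 21 mesenchymal effectors, 4 were higher and 1 was lower at an unadjusted p under 0.05 in the CtBP2 knockdown clones, with a median difference of 0.10, against 7.19% of all genes higher and 2.98% lower. In the clones labelled CtBP1 knockdown 1 was higher, against 2.87% of all genes, with a median of -0.03 that was 0.06 after renewed quantile normalization and after median centring. SPARC, a matricellular glycoprotein, had signals of 2.13, 3.34 and 6.22 in the clones labelled CtBP1 knockdown, 8.06 and 7.71 in the CtBP2 knockdown clones, and 3.00 and 2.07 in the scramble clones. It was higher in the CtBP2 knockdown clones by 5.35 ± 1.25 on the log2 scale (SE, adjusted p = 0.325, limma), and the scramble signals lie in the range of the off-lineage markers, so this size may be a lower bound. As with FN1, the CtBP2 knockdown clones lay close together and the clones labelled CtBP1 knockdown were spread over much of the range.

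LOXL2, a lysyl oxidase that crosslinks matrix, was higher by 1.57 ± 0.40 in the CtBP2 knockdown clones and by 1.32 ± 0.37 in the clones labelled CtBP1 knockdown, without overlap in either, or by 1.02 and 0.77 without scramble control 1. CD44, a hyaluronan receptor, differed by 0.46 in the CtBP2 knockdown clones. In the clones labelled CtBP1 knockdown S100A4 differed by 1.10 ± 0.53 (0.46 without scramble control 1) and MMP14, a membrane matrix metalloproteinase, by -0.22 ± 0.11. All MMP14 signals lie in the range of the off-lineage markers.

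**Figure D4:**
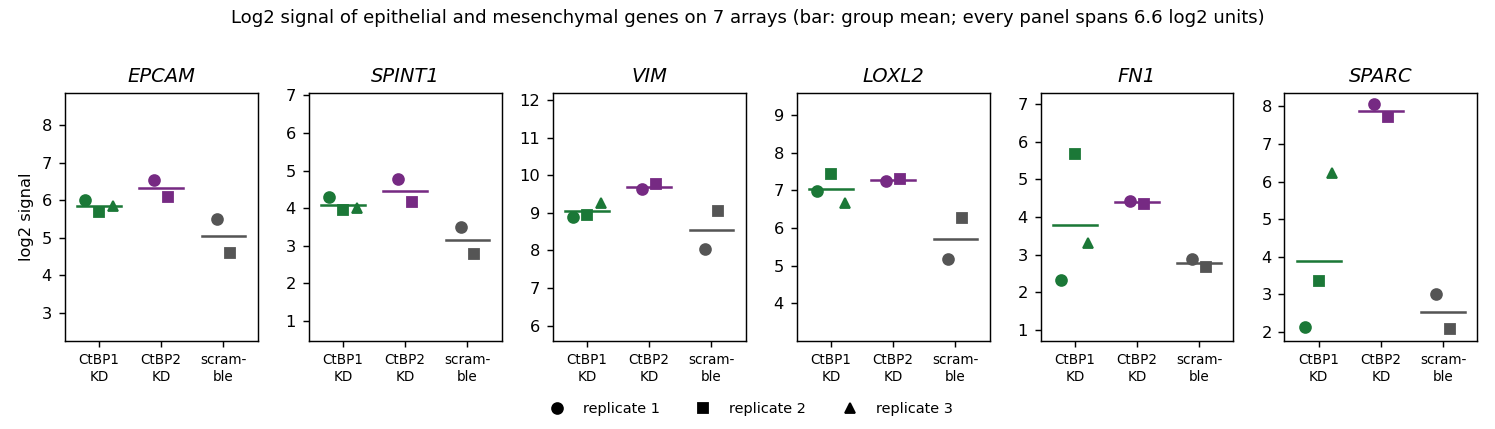
Log2 signal (y axis) on each of the 7 arrays for EPCAM and SPINT1 (epithelial) and for VIM, LOXL2, FN1 and SPARC (mesenchymal), with 1 point per array and the group mean as a bar. All 6 genes are higher in both CtBP2 knockdown clones than in both scramble clones. SPINT1, LOXL2 and SPARC were named because their groups do not overlap, so for them this follows from the choice. Of 27 epithelial target genes 10 were higher and 4 lower there without overlap. Of 21 mesenchymal effectors 6 were higher and 3 lower, against 19.3% and 21.7% of all genes. SPARC and FN1 spread widely over the clones labelled CtBP1 knockdown.

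Of 8 genes of the CtBP repressor complex, 0 had an unadjusted p under 0.05 in the clones labelled CtBP1 knockdown, against 4.79% of all genes. In the CtBP2 knockdown clones 1 was higher and 1 lower, against 7.19% and 2.98% of all genes. The lower one was CTBP2, the targeted gene, so that call is not a result about the list. Their median difference was 0.34 in the clones labelled CtBP1 knockdown and 0.55 in the CtBP2 knockdown clones, or 0.24 and 0.34 after renewed quantile normalization. The deacetylase genes HDAC1 and HDAC2 were higher in the CtBP2 knockdown clones by 0.90 and 0.57 without overlap, and by 0.22 and 0.27 without scramble control 1. CTBP2 itself differed by -1.49 ± 0.21 there (SE, adjusted p = 0.18, limma), and by -0.78 as the mean of its transcript clusters. In the clones labelled CtBP1 knockdown CTBP2 was higher by 0.36 ± 0.19, and by 0.14 without scramble control 1. CTBP1 differed by -0.25 ± 0.39 there (adjusted p = 0.849).

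**Figure D5:**
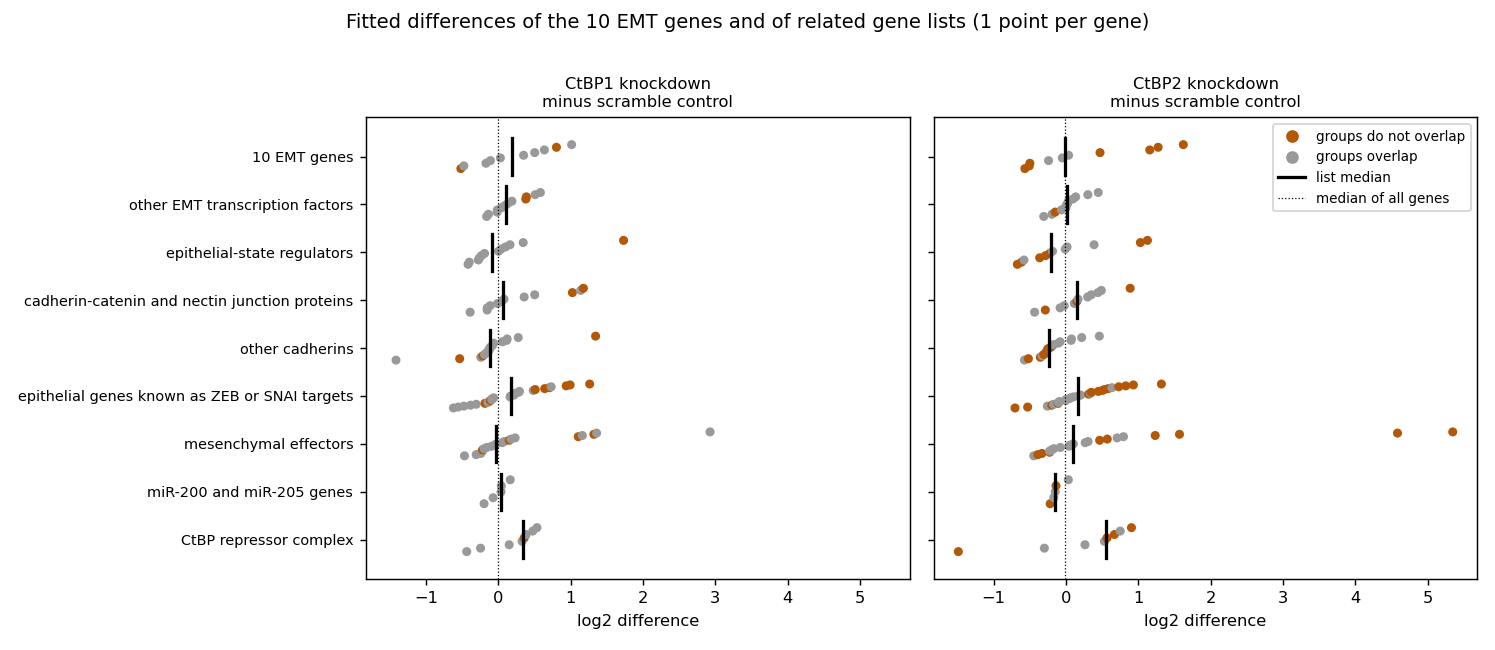
Log2 difference from scramble (x axis) of every measured gene of the 10 EMT genes and of 8 related lists (rows), on the left for the clones labelled CtBP1 knockdown and on the right for CtBP2 knockdown. Orange points are genes whose groups do not overlap, black bars are list medians and the dotted line is the median of all genes. SPARC is the far point at 5.35, and the other cadherins on the right lie mostly left of the dotted line, with a median of -0.23. That median was -0.07 after renewed quantile normalization and -0.09 after median centring, against 0.04 and 0.13 over all genes. Signals of 13 of these 18 cadherins lie in the range of the off-lineage markers on all arrays.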

How the data were processed

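The authors deposited 1 log2 signal for each transcript cluster on each array. The submitters' processing notes name RMA and Affymetrix Expression Console without a version. RMA equalises probe distributions across arrays before summarising, which removes uniform shifts between arrays at that step. The deposited values still differ in their median over all transcript clusters, with 2.93 on scramble control 1 and 2.62 to 2.71 on the other arrays. Groups and replicate numbers came from the sample titles. The genome build behind the array annotation is not given in the sources used here. Arrays have no read depth, and their number limits the precision.

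Of 33297 transcript clusters, GEO's platform annotation gives 1 symbol for 19181, several for 2055, and does not list 12061. Clusters with 1 symbol were used, with symbols updated through Entrez identifiers for 17930 genes. For 895 genes with more than 1 cluster the brightest was taken, and 17958 genes remained. A linear model with 3 group means was fitted to all 7 arrays with limma 3.58.1 (lmFit and default eBayes) in R 4.3.3, with 4 residual degrees of freedom, and two-sided p-values were adjusted by Benjamini-Hochberg over all genes within a comparison, and called under 0.05. The fit gave the standard errors printed after ±. Groups do not overlap where every array of 1 group lies above every array of the other. The fit was also run on simulated arrays with known changes, with the same spread in every group and no control that stands apart. Of 100 genes changed by 1 log2 unit, 34 passed for CtBP1 knockdown against scramble, 22 for CtBP2 knockdown and 36 between the knockdowns. Of 100 changed by 2 log2 units, 66, 82 and 66 passed. In the same order, 8, 7 and 9 unchanged genes passed. Many changes of 1 log2 unit would thus be missed.

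The 10 genes and the 8 related lists were chosen with earlier results of these data known. Named genes were the 10, CTBP1 and CTBP2, per list and comparison up to 3 genes with the smallest unadjusted p among those without overlap, and the 2 likest patterns for members with a range over 1 log2 unit. SPINT1 is also quoted for the clones labelled CtBP1 knockdown. Likeness was the root mean square distance of mean-centred profiles, and Y-linked genes and SNOR, MIR, LINC, LOC and placeholder symbols were skipped. Deviations of same-numbered arrays from their group means had correlations of -0.354 to 0.098, and the main fit used no pairing. In a group of 2 arrays the deviations mirror each other. These correlations are therefore not independent and cannot exclude a shared batch. Alternatives tried were each array left out, the replicate block, array weights, fits on the compared groups, robust eBayes, a mean-variance trend, 2 further normalizations (quantile and median centring), dim-gene filters and other choices among clusters. Identical values on 2 or more arrays were held by 7180 of the 17958 genes and by 0 of the 10. A further alternative left such genes out. RefSeq sequences and names are of GRCh38.p14. Figures were drawn with matplotlib 3.10.9.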

Additional observations from a re-analysis of the deposited data

How the results depend on the processing

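With 2 scramble clones, of which 1 stands apart, the number of calls depends on which control is kept. Without scramble control 2, 3 of the 10 genes passed the threshold in each comparison with scramble (ZEB2, TWIST1 and VIM in both), beside 3262 of all genes for the clones labelled CtBP1 knockdown and 3952 for CtBP2 knockdown. Among the 115 listed genes 25 and 27 then passed. Leaving out any other array gave 0, so the range over arrays left out was 0 to 3 for the 10 genes in both. Between the knockdowns, array weights called 2 listed genes (CTBP2 and ESRP1, with 272 of all genes) and 0 members. CTBP2 is itself the target of the CtBP2 knockdown. The replicate block called 0 of the 10 genes and 0 of all genes in each comparison. Under it 1, 2 and 0 of the 10 had an unadjusted p under 0.05, against 2.43%, 7.1% and 4.99% of all genes.

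Of the 10 genes 5, 7 and 5 kept their direction under every alternative tried for the clones labelled CtBP1 knockdown, for CtBP2 knockdown and between the knockdowns. Over arrays left out, the ranges that crossed 0 for the clones labelled CtBP1 knockdown were ZEB1 -0.48 to 0.14, SNAI1 -0.20 to 0.024, CDH1 -0.12 to 0.14, CDH2 -0.58 to 1.28, VIM -0.0017 to 1.01 and CTBP1 -0.59 to 0.093. For CtBP2 knockdown they were SNAI2 -0.84 to 0.35 and CDH2 -0.90 to 0.97. Between the knockdowns they were ZEB2 -0.044 to 0.093, SNAI1 -0.15 to 0.076, TWIST1 -0.014 to 0.12, CDH2 -0.046 to 0.58 and FN1 -1.56 to 0.11. Renewed quantile normalization turned the CtBP2 knockdown differences of SNAI1 to 0.11, CDH2 to -0.20, TBXT to 0.018, AFDN to -0.094 and MIR429 to 0.030, and the difference of ZEB2 between the knockdowns to -0.042. Median centring, which moves the median of all genes in CtBP2 knockdown against scramble to 0.13, turned SNAI1 to 0.095 and MIR429 to 0.0075 there, and between the knockdowns ZEB2 to -0.034 and TWIST1 to -0.0058. The cause was not tested.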

Other observations

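Several listed genes, singled out after their values were seen, differed more between the 2 scramble controls than any of the 10 genes did. THBS1, a secreted matricellular protein, had log2 signals of 9.61, 8.36 and 7.82 in the clones labelled CtBP1 knockdown, 10.65 and 9.85 in the CtBP2 knockdown clones, and 3.25 in scramble control 1 but 8.08 in scramble control 2. CDH6, or K-cadherin, had 4.92, 3.41 and 3.23 in the clones labelled CtBP1 knockdown, 4.56 and 4.83 in the CtBP2 knockdown clones, and 3.20 and 7.34 in scramble controls 1 and 2. AXL, a receptor tyrosine kinase of the mesenchymal state, ran from 8.56 to 9.27 in the clones labelled CtBP1 knockdown, had 8.54 and 8.57 in the CtBP2 knockdown clones, and 6.07 and 9.45 in the scramble clones. PLEKHA7, an adherens junction protein, ran from 5.46 to 6.06 in the clones labelled CtBP1 knockdown, had 5.29 and 5.06 in the CtBP2 knockdown clones, and 3.22 and 6.16 in the scramble clones. In size these gaps of -4.83, -4.14, -3.37 and -2.94 log2 units (scramble control 1 minus 2) exceed those of over 99% of genes. The CDH2 gap of -1.86 has the same sign.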
